A study of Homo sapiens with 4 samples.

Results

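The enzymes that make serine, pass its carbon to folate and turn homocysteine into cysteine were followed in MDA-MB-231 cells after knockdown of the histone demethylase KDM1A. The set holds 10 genes, PHGDH, PSAT1, PSPH, SHMT1, SHMT2, MTHFD2, MTHFD1L, ALDH1L2, CBS and CTH, of 23228 genes listed in the count tables, and all 10 were among the 14012 genes with enough reads to be tested. It was put together because PHGDH and CBS were nearly lost in the KDM1A shRNA libraries. The values of the 10 genes in that comparison are therefore a description and carry no test.

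MDA-MB-231 is an established cell line from a human breast cancer without estrogen and progesterone receptors or HER2 amplification. Its stem-like fraction had been sorted by the ALDEFLUOR assay, which reads aldehyde dehydrogenase activity, and grown in MammoCult medium. Cells of the first group stably expressed KDM1A shRNA from a lentiviral vector and their counterparts stably expressed control shRNA, and RNA was sequenced from 2 libraries of each. The labels name no further hairpin and no rescue, and do not say that a group's libraries came from separate cultures, so loss of KDM1A and any other effect of that hairpin or culture cannot be told apart, and p-values measure only the spread between these libraries. The sequencing was of bulk RNA, in which fewer cells of a type and less RNA per cell cannot be told apart.

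Serine is made from the glycolytic intermediate 3-phosphoglycerate in 3 steps, by PHGDH, PSAT1 and PSPH in turn. SHMT enzymes move a carbon from serine to tetrahydrofolate, giving glycine, and the mitochondrial folate enzymes MTHFD2, MTHFD1L and ALDH1L2 oxidise that unit toward formate or carbon dioxide, while cytosolic enzymes use it for purines, thymidylate and methionine. CBS joins serine to homocysteine and CTH splits the product to release cysteine, the transsulfuration route. In breast cancer PHGDH is known for gains and high expression in part of the estrogen receptor negative tumours, and MDA-MB-231 is known as a line with little PHGDH.

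Reads assigned to genes numbered 23902900 and 25761937 in KDM1A shRNA libraries 1 and 2, and 26923678 and 24250377 in control shRNA libraries 1 and 2. KDM1A had 561 and 649 reads in the KDM1A shRNA libraries, against 4660 and 4059 in the control shRNA libraries (log2 fold change −2.81, SE 0.05, edgeR adjusted p = 2.18e-14), which checks the shRNA named in the labels and not the cell line. All 6 genes typical of MDA-MB-231 (VIM, CD44, CAV1, EGFR, AXL and MSN) were abundant, with summed levels of 5295 and 5331 CPM in KDM1A shRNA and 4468 and 4463 CPM in control shRNA (CPM, counts scaled to each library's total after TMM adjustment). The 8 luminal genes summed to 493 and 510 CPM in KDM1A shRNA and 380 and 391 CPM in control shRNA, mostly KRT19, with PGR, the progesterone receptor, at 0 and 1 reads in KDM1A shRNA and 1 and 1 in control shRNA. ESR1, an estrogen receptor gene, had 0 and 1 reads in KDM1A shRNA and 7 and 9 in control shRNA. FOXA1 had 9 and 8 reads in KDM1A shRNA and 22 and 32 in control shRNA. The other luminal genes, ERBB2, GATA3, EPCAM, KRT19 and CDH1, were higher in KDM1A shRNA. Immune, endothelial and fibroblast genes, 9 in all, summed to 127 and 122 CPM in KDM1A shRNA and 178 and 173 CPM in control shRNA, with PTPRC, a marker of leukocytes, at 4 and 3 reads in KDM1A shRNA and 2 and 2 in control shRNA. Among their fibroblast genes, DCN averaged 55.0 CPM in KDM1A shRNA and 123 CPM in control shRNA, PDGFRB 25.5 CPM in KDM1A shRNA and 9.22 CPM in control shRNA, and COL1A1 18.9 CPM in KDM1A shRNA and 10.5 CPM in control shRNA. Endothelial VWF had 3 and 4 reads in KDM1A shRNA and 24 and 13 in control shRNA. CDH5, also endothelial, had 9 and 5 reads in KDM1A shRNA and 21 and 20 in control shRNA. CD14 and PECAM1 were lower in KDM1A shRNA too, at 53.7% and 82.6% of control. Of these lists, edgeR called 4 typical genes higher and 2 lower, 5 luminal genes higher and 1 lower of 6 tested, and 2 genes of other cell types higher and 5 lower of 7 tested. Of all genes tested, 27.3% were called higher and 28.8% lower, and the part of these markers in the values of the enzymes was not tested.

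The control shRNA libraries stood apart from the known genotype of the line at band 9p21. The line is known for a deletion of CDKN2A, yet CDKN2A had 13 and 19 reads in KDM1A shRNA and 323 and 329 in control shRNA. The 4 genes taken from this band, CDKN2A, CDKN2B, MTAP and KLHL9, summed to 1.503 and 1.67 CPM in KDM1A shRNA and 34.0 and 37.5 CPM in control shRNA. None of the 4 was at 0 in both KDM1A shRNA libraries, but CDKN2B, at 0 and 1 reads there, cannot be told from 0. PHGDH, CBS and ALDH1L2 were also far lower in KDM1A shRNA than in control shRNA, and the part of whatever sets the 9p21 reads in the values of the enzymes was not tested. The log2 fold change of PHGDH was −4.38 without control shRNA library 1 and −4.34 without control shRNA library 2. Both control shRNA libraries carried the 9p21 reads, so leaving out 1 of them cannot bear on that question.

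Among the 10 enzymes, 3 stood far below their control level after KDM1A knockdown and the other 7 differed by less than 2-fold in either direction. CBS stood at 2.78% of its control level, PHGDH at 4.79% and ALDH1L2 at 13.1%. MTHFD2 and CTH stood at 62.4% and 62.3%, MTHFD1L at 76.5% and SHMT2 at 80.8%. PSPH stood at 114%, PSAT1 at 117% and SHMT1 at 130%. At an adjusted p under 0.05, edgeR called all 10, where 56.1% of all genes tested were called. It called 7 of the 10 lower, where 28.8% of all genes tested were, and 3 higher, where 27.3% were, and 3 were lower by 2-fold or more, where 8.54% were. The groups did not overlap in any of the 10, as in 77.7% of all genes tested. Since the enzymes were chosen on this comparison, nothing more is read from these counts. The median log2 fold change of the 10 was −0.53 and that of all genes tested was −0.0047.

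**Figure D1:**
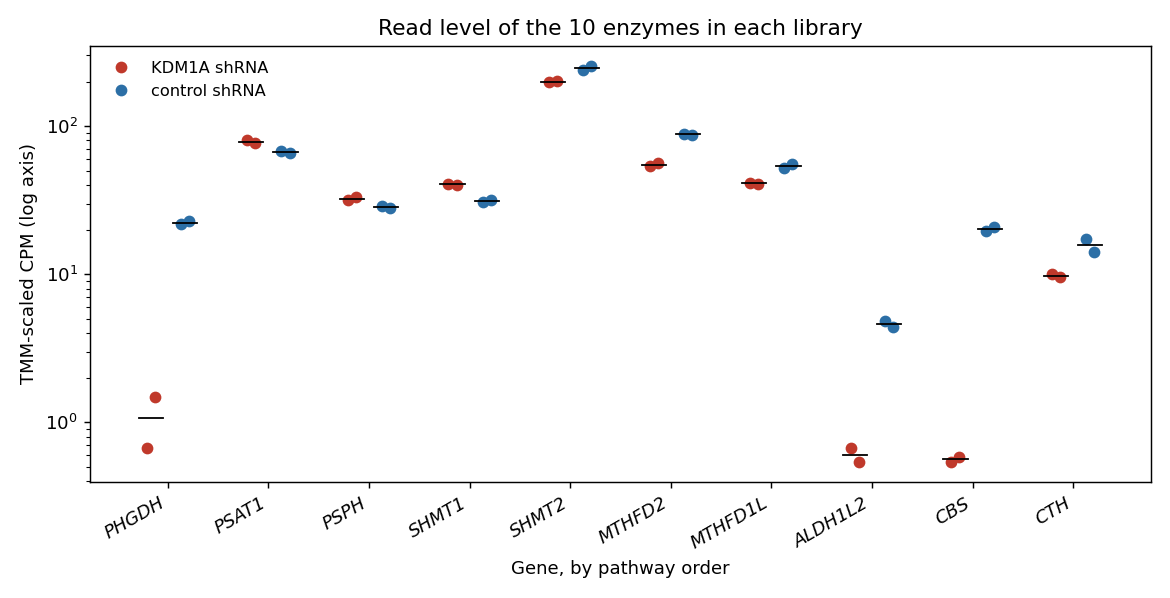
Level of each of the 10 enzymes in each library, in TMM-scaled CPM on a log axis, with KDM1A shRNA in red and control shRNA in blue; points are libraries and black bars are group means of 2 libraries. PHGDH, CBS and ALDH1L2 lie between 0.543 and 1.47 CPM in KDM1A shRNA, while the other 7 enzymes lie between 9.57 and 256 CPM in both groups.

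PHGDH, the enzyme of the first and committed step of serine synthesis (GRCh37 chromosome 1, plus strand, 120191034 to 120286841), was covered by 16 and 38 reads in KDM1A shRNA libraries 1 and 2 and 589 and 551 in control shRNA libraries 1 and 2. In level this was 0.668 and 1.47 CPM in KDM1A shRNA and 22.0 and 22.7 CPM in control shRNA. Neither KDM1A shRNA library came near the controls, but they also differed from each other. The 95% exact Poisson intervals of their counts ran from 9.15 to 26.0 reads in library 1 and from 26.9 to 52.2 reads in library 2, and cover counting error only. The group means were 1.07 ± 0.57 CPM in KDM1A shRNA and 22.4 ± 0.51 CPM in control shRNA (SD, 2 libraries each), a log2 fold change of −4.36 (SE 0.18). It was −3.92 without KDM1A shRNA library 1 and −5.05 without library 2, so a difference of 16-fold or more rests on KDM1A shRNA library 1. Of all genes tested, 1.59% had a lower log2 fold change.

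PSAT1, the transaminase of the next step (chromosome 9, 80912041 to 80945009), was at 80.3 and 76.4 CPM in KDM1A shRNA and 68.1 and 65.6 CPM in control shRNA. PSPH, the phosphatase that completes serine (chromosome 7, 56078744 to 56119297), was at 31.5 and 33.4 CPM in KDM1A shRNA and 28.9 and 28.0 CPM in control shRNA. Both were slightly higher in KDM1A shRNA, so the 3 enzymes of the linear route did not move alike. Their log2 fold changes were 0.23 (SE 0.05) for PSAT1 and 0.19 (SE 0.07) for PSPH. These values are small, and PSPH was not called without KDM1A shRNA library 1 or library 2 or in DESeq2, nor PSAT1 without KDM1A shRNA library 1. Reads that aligned to more than 1 place had been set aside, so genes with near-identical pseudogenes, such as PSPH and PSAT1, are uncertain.

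SHMT2, the mitochondrial serine hydroxymethyltransferase (chromosome 12, 57623356 to 57628718), was at 198 and 201 CPM in KDM1A shRNA and 238 and 256 CPM in control shRNA, a log2 fold change of −0.31 (SE 0.04). SHMT1, its cytosolic counterpart (chromosome 17, 18231174 to 18266877), was at 40.8 and 40.3 CPM in KDM1A shRNA and 30.6 and 31.5 CPM in control shRNA, a log2 fold change of 0.38 (SE 0.06). The mitochondrial form was lower and the cytosolic form higher, each without overlap between groups, as in 77.7% of all genes tested. SHMT1 overlaps SMCR8 on the opposite strand, and it is not known whether the counting used strand, so reads from the overlap cannot be told apart. SMCR8 had 2205 and 2337 reads in KDM1A shRNA and 2294 and 2030 in control shRNA. The same holds for SHMT2 with NDUFA4L2, which had at most 2 reads in any library, and for MTHFD2 with SLC4A5, which had at most 25.

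The mitochondrial folate enzymes were lower in KDM1A shRNA, to very different degrees. MTHFD2, the dehydrogenase and cyclohydrolase that many tumours express and most adult tissues do not (chromosome 2, 74413299 to 74444692), was at 53.6 and 56.2 CPM in KDM1A shRNA and 88.7 and 87.3 CPM in control shRNA (log2 fold change −0.68, SE 0.05). MTHFD1L, which releases formate from the mitochondrion (chromosome 6, 151186815 to 151423023), was at 41.1 and 40.9 CPM in KDM1A shRNA and 51.9 and 55.3 CPM in control shRNA (−0.39, SE 0.06). ALDH1L2, which oxidises formyl-tetrahydrofolate to carbon dioxide (chromosome 12, 105413562 to 105501421), had 16 and 14 reads in KDM1A shRNA and 130 and 107 in control shRNA. Its level was 0.605 ± 0.089 CPM in KDM1A shRNA and 4.63 ± 0.31 CPM in control shRNA (SD, 2 libraries each), a log2 fold change of −2.93 (SE 0.23). ALDH1L2 had the fewest reads of the 10 in control shRNA, and it is overlapped on the opposite strand by C12orf45, with 283 and 294 reads in KDM1A shRNA and 235 and 239 in control shRNA, and by KIAA1033, with 4208 and 4608 reads in KDM1A shRNA and 3949 and 3289 in control shRNA.

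CBS, cystathionine beta-synthase (chromosome 21, 44473301 to 44497053, minus strand), had 13 and 15 reads in KDM1A shRNA and 523 and 507 in control shRNA. In level this was 0.543 and 0.581 CPM in KDM1A shRNA and 19.5 and 20.9 CPM in control shRNA. The libraries of each group lay close together, and the log2 fold change was −5.15 (SE 0.16), with a range from −5.20 to −5.11 over 12 alternative settings. Of all genes tested, 0.921% had a lower log2 fold change. CTH, the cystathionine gamma-lyase that acts after CBS (chromosome 1, 70876901 to 70905534), was at 10.02 and 9.57 CPM in KDM1A shRNA and 17.2 and 14.2 CPM in control shRNA. CTH was lower in KDM1A shRNA, by far less than CBS, without overlap between the groups, as in 77.7% of all genes tested. The log2 fold change of CTH was −0.69 (SE 0.11) and ranged from −0.81 without control shRNA library 2 to −0.54 without control shRNA library 1.

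**Figure D2:**
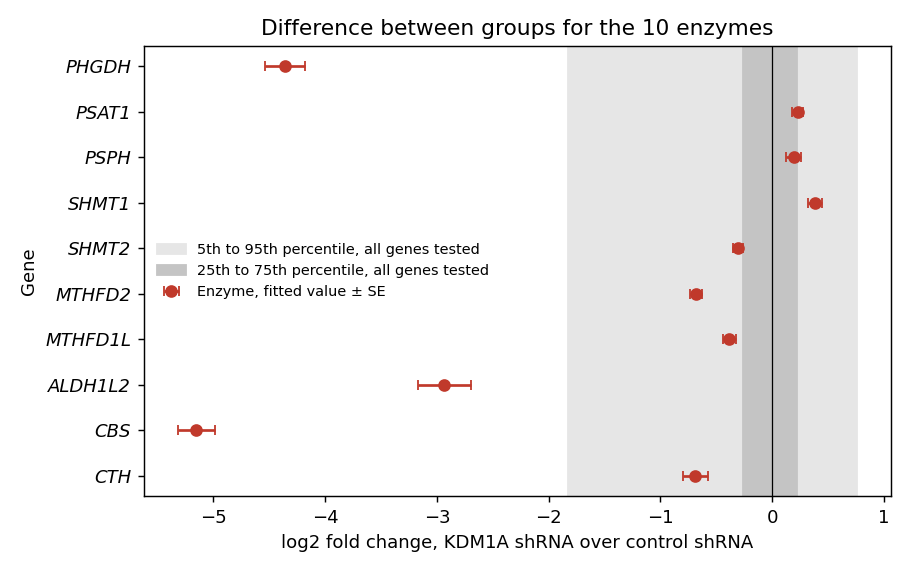
Fitted log2 fold change of KDM1A shRNA over control shRNA for the 10 enzymes, with bars of 1 SE; shaded bands mark the 25th to 75th and the 5th to 95th percentile of all 14012 genes tested. CBS at −5.15, PHGDH at −4.36 and ALDH1L2 at −2.93 lie below the 5th percentile of −1.83, and the other 7 enzymes lie between −0.69 and 0.38.

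Genes called lower by 16-fold or more made up 1.96% of all genes tested, or 275 genes, PHGDH and CBS among them. Among the 10842 genes with a mean of at least 5 CPM in control shRNA they made up 0.553%, or 60 genes. Genes of band 9p21 stood at percentages of control like those of CBS and PHGDH. KLHL9 was at 2.98%, CDKN2A at 4.99% and MTAP at 5.65%, beside 2.78% for CBS and 4.79% for PHGDH, while ALDH1L2 was at 13.1%. KLHL9, an adaptor of a ubiquitin ligase, had 8 and 9 reads in KDM1A shRNA and 290 and 293 in control shRNA. CDKN2B, a cyclin-dependent kinase inhibitor, had 0 and 1 reads in KDM1A shRNA and 27 and 31 in control shRNA.

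The genes whose levels over the 4 libraries were most like those of each enzyme were taken by the Euclidean distance of centred log2 CPM, among named genes with at least 5 CPM in control shRNA. With 2 groups of 2 libraries this distance mostly reads the size of the difference between groups. For PHGDH they were ELOVL2, an elongase of long polyunsaturated fatty acids (distance 0.0875), the spectrin-binding adducin ADD2 (0.225) and the angiomotin gene AMOT (0.271). ELOVL2 had 4 and 10 reads in KDM1A shRNA and 155 and 139 in control shRNA, ADD2 had 3 and 8 in KDM1A shRNA and 134 and 143 in control shRNA, and AMOT had 23 and 49 in KDM1A shRNA and 825 and 619 in control shRNA. All 3 shared with PHGDH a higher count in KDM1A shRNA library 2 than in library 1, and like PHGDH their log2 fold changes moved with the library left out, from −3.88 to −5.06 for ELOVL2. Because the distance used all 4 libraries, both likenesses follow from how these genes were picked and are no separate result. For CBS they were KLHL9 (0.141), the G protein subunit GNG4 (0.209) and LIN28B, the RNA-binding protein that blocks let-7 maturation (0.213). LIN28B had 16 and 18 reads in KDM1A shRNA and 638 and 519 in control shRNA.

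**Figure D3:**
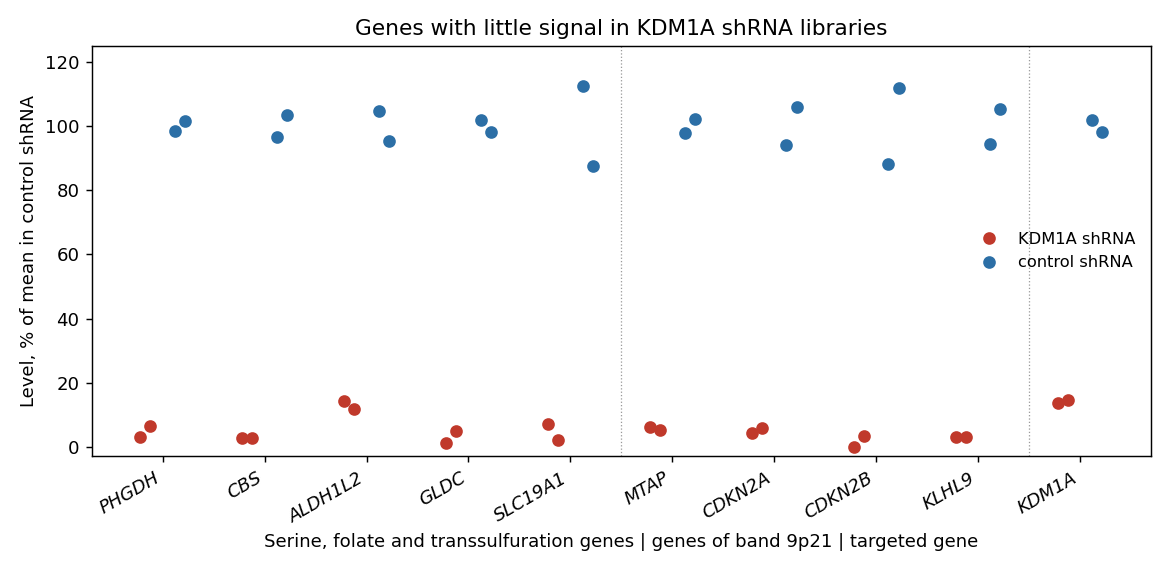
Level in each library as a percentage of the gene's mean in control shRNA, with KDM1A shRNA in red and control shRNA in blue, for genes of serine, folate and transsulfuration metabolism, for the 4 genes of band 9p21 and for KDM1A. CBS at 2.78% and PHGDH at 4.79% lie at the level of KLHL9 (2.98%) and CDKN2A (4.99%), and KDM1A itself lies at 14.2%.

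The chromosomal neighbours of PHGDH and CBS, the 3 nearest tested genes on each side, stood between 45.9% and 249% of control, none near the level of PHGDH or CBS. Around PHGDH, ZNF697 stood at 57.1% of control (log2 fold change −0.81, SE 0.07, edgeR adjusted p = 2.89e-07), and the T-box gene TBX15 at 45.9% (−1.13, SE 0.16, edgeR adjusted p = 3.78e-05). The annotated span of ZNF697 lies 0.1 kb from that of PHGDH. Spans cover all annotated transcripts of a gene, so gaps between them are not distances between start sites. NOTCH2, 167.3 kb away, was at 91.7% (edgeR adjusted p = 0.0215), and was not called without control shRNA library 1 (0.0781), KDM1A shRNA library 1 (0.144) or KDM1A shRNA library 2 (0.179). FAM72B, which has near-identical copies, was at 76.1% (edgeR adjusted p = 0.0127), and was not called in DESeq2 (0.0997) or without KDM1A shRNA library 1 (0.0891). The mitochondrial tryptophanyl-tRNA synthetase gene WARS2 (107%) and the pseudogene EMBP1 (101%) were not called. Around CBS, PKNOX1, 19.3 kb away, was called lower, at 82.4% (edgeR adjusted p = 0.00559), but not without KDM1A shRNA library 2 (0.0751). U2AF1 (92.4%), WDR4 (83.5%) and NDUFV3 (99.5%) were not called. In edgeR, U2AF1 passed with upper quartile scaling (adjusted p = 0.0277) and with a filter of a mean of 5 CPM (0.0323). Without control shRNA library 1, the log2 fold change was −0.43 for WDR4 and −0.16 for U2AF1, against −0.26 and −0.11 with all libraries. The kinase gene SIK1 rose to 135% (edgeR adjusted p = 5.27e-05) and the meiotic gene HSF2BP to 249% (edgeR adjusted p = 7.32e-05). In all, 5 of the 12 neighbours were called lower and 2 higher, where 28.8% of all genes tested were called lower and 27.3% higher.

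Upstream sequences of PHGDH and CBS are shown because these 2 genes had the lowest percentages of control of the set. They are the 250 bases before the annotated start from RefSeq (GRCh38.p14), chr1:119711684-119711933 on the plus strand for PHGDH and chr21:43076378-43076627 on the minus strand for the first of 3 annotated starts of CBS. Capitals mark matches to TGATGNAA (the core of the amino acid response element bound by ATF4), CACGTG (the E-box bound by MYC) or TGACNNNGC (the antioxidant response element bound by NRF2), searched on both strands.
PHGDH: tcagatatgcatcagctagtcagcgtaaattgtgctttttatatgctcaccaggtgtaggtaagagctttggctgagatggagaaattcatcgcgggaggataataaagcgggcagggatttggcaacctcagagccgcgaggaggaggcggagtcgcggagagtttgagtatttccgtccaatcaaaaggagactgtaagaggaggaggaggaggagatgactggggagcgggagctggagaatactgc
CBS: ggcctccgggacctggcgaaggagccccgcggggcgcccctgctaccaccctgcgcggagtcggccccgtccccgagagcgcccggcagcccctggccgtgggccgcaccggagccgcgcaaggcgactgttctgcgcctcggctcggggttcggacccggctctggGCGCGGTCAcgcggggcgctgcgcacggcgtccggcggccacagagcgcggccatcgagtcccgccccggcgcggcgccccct
The PHGDH stretch had 51.2% G and C and 11 CpG pairs and the CBS stretch 80.8% and 41, where all 35116 RefSeq windows had medians of 58.0% and 11. The window of CBS start 2 had 81.2% and 24, and that of CBS start 3 had 52.0% and 3, close to PHGDH in G and C. The CBS stretch held 1 antioxidant response element match, 83 bases before the start, in a motif found in 10.9% of all windows, and the PHGDH stretch held none of the 3 motifs. RefSeq windows were found for 7 of the 10 enzymes, 12 windows in all, and none for PSPH, SHMT2 and ALDH1L2. TGATGNAA, present in 3.14% of all windows, occurred in 2 of these 12, both covering 1 site of MTHFD1L, and CACGTG, present in 6.34% of all windows, occurred in the same 2. The MTHFD1L site, chr6:150866346-150866375 on the plus strand, lies 129 bases before the first listed start and is shown because ATF4 is a known activator of these enzymes.
MTHFD1L: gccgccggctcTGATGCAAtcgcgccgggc
GGGCGG, the GC box bound by Sp1, was also searched, without capitals, and occurred in 42.6% of all windows and in 8 of the 12, with 1 match in the CBS stretch shown and none in that of PHGDH. A match is a string of letters and not evidence of binding, and the matches in capitals did not overlap any other motif.

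Levels of different genes were compared as CPM per kilobase of merged exons (GENCODE v44 lifted to GRCh37). In KDM1A shRNA SHMT2 (43.5 ± 0.53) and PSAT1 (35.5 ± 1.26) were highest, followed by PSPH (11.7), MTHFD1L (8.39), SHMT1 (5.77), MTHFD2 (4.80), CTH (4.06), PHGDH (0.117 ± 0.062), CBS (0.0828 ± 0.0040) and ALDH1L2 (0.0638 ± 0.0093) CPM per kilobase. In control shRNA SHMT2 (53.8 ± 2.74) and PSAT1 (30.3 ± 0.81) were also highest, followed by MTHFD1L (11.0 ± 0.48), PSPH (10.3 ± 0.22), MTHFD2 (7.69), CTH (6.51 ± 0.88), SHMT1 (4.43), CBS (2.98 ± 0.14), PHGDH (2.43 ± 0.055) and ALDH1L2 (0.488 ± 0.033) CPM per kilobase. PHGDH differed from CBS and from ALDH1L2 in KDM1A shRNA, and MTHFD1L from PSPH in control shRNA, by less than the sum of their SDs, so their order is not firm. Merged exons of PHGDH span 9187 bases and its canonical transcript 1866, so per-length levels depend on the length used. With canonical transcripts, a choice made after seeing the data, PHGDH came to 0.574 CPM per kilobase in KDM1A shRNA and 11.98 in control shRNA, 8th and 7th of the 10, while SHMT2 stayed first, PSAT1 second and ALDH1L2 last in both groups. In control shRNA CTH moved from 6th to 9th and MTHFD2 from 5th to 3rd with these lengths.

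Across 6 related lists, between 21.1% and 40.9% of the tested genes were called higher and between 9.09% and 42.1% lower, where all genes tested gave 27.3% and 28.8% and a median log2 fold change of −0.0047. Values given with an SE alone are log2 fold changes. Other genes of the folate cycle, with folate carriers and the glycine cleavage system, were called higher in 9 and lower in 4 of 22 tested, of 27 listed (median log2 fold change 0.12). DESeq2 called 5 of them higher, and a filter of a mean of 5 CPM left 2 called lower. GLDC is the decarboxylase that splits glycine to feed folate in mitochondria. It had 1 and 4 reads in KDM1A shRNA and 85 and 74 in control shRNA (−4.89 on the log2 scale, SE 0.39, edgeR adjusted p = 9.64e-08). Its log2 fold change was −6.06 without KDM1A shRNA library 2 and −4.28 without library 1. SLC19A1, the reduced folate carrier, had 6 and 2 reads in KDM1A shRNA and 105 and 74 in control shRNA (log2 fold change −4.40, SE 0.38, edgeR adjusted p = 1.79e-07). Its value was −5.41 in the fit lacking KDM1A shRNA library 1 and −3.78 in the fit lacking library 2. These 2 genes, like PHGDH, CBS and the 9p21 genes, had little signal in KDM1A shRNA, and both passed the read filter only through control shRNA. With 2 groups of 2 libraries, all strongly lower genes share this pattern, so it is no separate result. The part of whatever sets the 9p21 reads was not tested.

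Cytosolic enzymes were among the folate genes called higher. MTHFD1, the trifunctional cytosolic enzyme, rose to 213 ± 0.92 CPM in KDM1A shRNA, against 152 ± 14.1 CPM in control shRNA (0.49, SE 0.05, edgeR adjusted p = 1.78e-06), and TYMS, thymidylate synthase, rose to 185 CPM in KDM1A shRNA, against 117 CPM in control shRNA (0.66, SE 0.04). SARDH, which passes the methyl carbon of sarcosine to folate, rose (0.77, SE 0.10), as did SLC25A32, the mitochondrial folate carrier (0.28, SE 0.05). MTR, methionine synthase, fell (−0.35, SE 0.06). MTHFD2L, the paralog of MTHFD2, was not called (−0.17, SE 0.13).

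Purine and pyrimidine synthesis genes were called higher in 9 and lower in 2 of 22 (median 0.037). IMPDH1, of guanine nucleotide synthesis, rose to 247 CPM in KDM1A shRNA, against 148 CPM in control shRNA (0.74, SE 0.04). CAD, of the first pyrimidine steps (0.46, SE 0.04), and thymidine kinase TK1 (0.56, SE 0.05) rose as well. GART, which uses formyl-folate in purine synthesis (−0.28, SE 0.04), and PRPS1, which makes the ribose donor (−0.35, SE 0.05), fell.

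Genes of the methionine cycle, methyl transfer, polyamine synthesis and methionine salvage were called higher in 6 and lower in 6 of 18 tested, of 22 listed (median 0.045). MAT2A, which makes S-adenosylmethionine, rose to 331 CPM in KDM1A shRNA, against 249 CPM in control shRNA (0.41, SE 0.04). Spermidine synthase SRM (0.47, SE 0.05) and GAMT, of creatine synthesis (0.75, SE 0.07), also rose. AHCY, which yields the homocysteine that CBS uses, was not called (0.08, SE 0.04). Its log2 fold change was 0.082 without control shRNA library 1 and 0.077 without control shRNA library 2. SAT1, which acetylates polyamines, fell (−1.34, SE 0.04), as did AHCYL1 (−0.22, SE 0.04). MTAP, of methionine salvage and also of the 9p21 genes, had 15 and 14 reads in KDM1A shRNA and 271 and 256 in control shRNA (−4.14, SE 0.19). As the control shRNA libraries stood apart from the known genotype at this band, the difference is not read as a loss after knockdown.

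Cysteine, sulfide and glutathione genes were called higher in 9 and lower in 7 of 24 tested, of 25 listed (median 0.015). The cystine carrier SLC7A11, which brings in cysteine from outside, rose to 62.9 ± 0.70 CPM in KDM1A shRNA, against 41.9 ± 2.17 CPM in control shRNA (0.58, SE 0.06, edgeR adjusted p = 7.91e-07). Of the 2 subunits of the enzyme that joins cysteine to glutamate for glutathione, the modifier GCLM rose (0.37, SE 0.05) and the catalytic GCLC fell (−0.32, SE 0.04). GGT1, a gamma-glutamyltransferase with near-identical paralogs, rose (1.02, SE 0.15) and GGT7 of the same family fell (−1.32, SE 0.10). SQRDL, the mitochondrial sulfide oxidase, fell to 215 CPM in KDM1A shRNA, against 336 CPM in control shRNA (−0.64, SE 0.04).

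Genes for transport and use of serine and glycine were called higher in 10 and lower in 7 of 28 tested, of 32 listed (median 0.0013). SLC38A4, an amino acid carrier, rose to 30.4 CPM in KDM1A shRNA, against 9.83 CPM in control shRNA (1.63, SE 0.09). PTDSS1, which puts serine into phosphatidylserine (0.65, SE 0.04), and the sideroflexin SFXN2 (0.92, SE 0.08) rose. SFXN1, a mitochondrial serine carrier, fell (−0.28, SE 0.05). SLC38A2, a carrier of small neutral amino acids (−0.58, SE 0.03), SERINC3 (−0.29, SE 0.03) and SPTLC2, of sphingolipid synthesis from serine (−0.37, SE 0.05), fell too. Of the carriers that take up serine beside glutamine or alanine, SLC1A5 rose (0.22, SE 0.04), and SLC1A4 was not called (−0.17, SE 0.20).

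**Figure D4:**
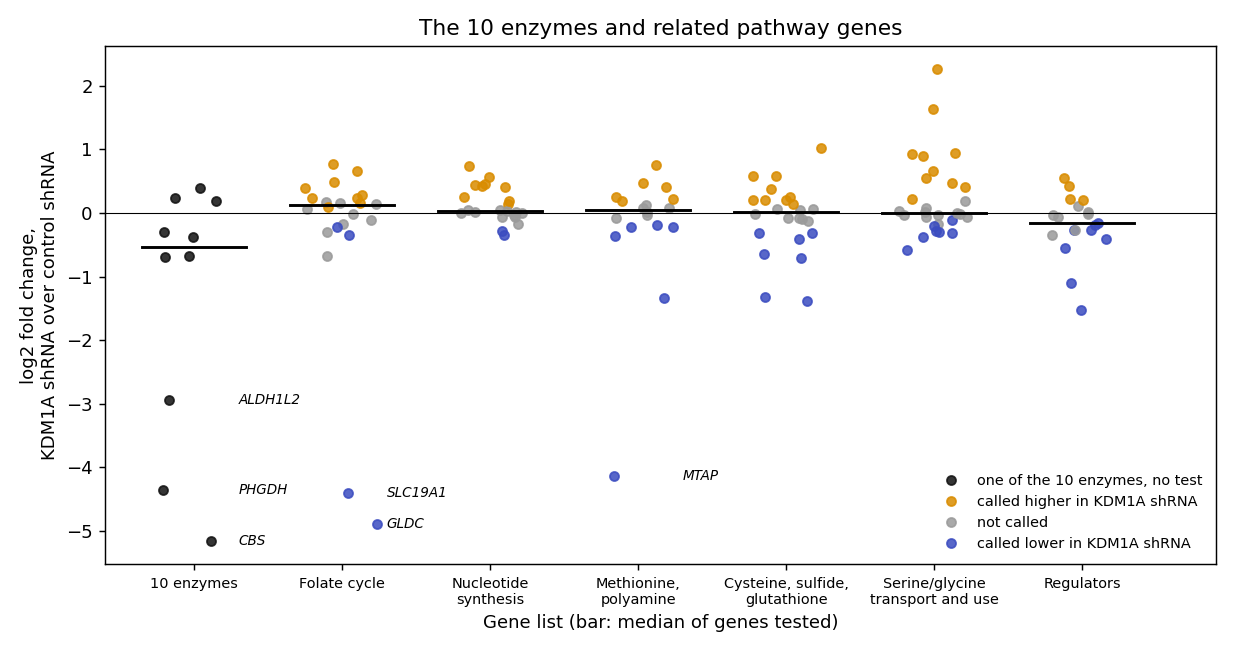
Log2 fold change of KDM1A shRNA over control shRNA for every tested gene of the 10 enzymes and 6 related lists, with list medians as black bars; the enzymes are in black, without a test, and other genes are coloured by their edgeR call. Apart from GLDC, SLC19A1 and MTAP, all related genes lie between −1.53 and 2.25.

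Known regulators of serine synthesis genes were called lower in 8 and higher in 4 of 19 tested, of 20 listed (median −0.16). ATF4, the transcription factor of amino acid stress that activates PHGDH, PSAT1, SHMT2, MTHFD2 and other enzymes of the set, fell to 166 ± 1.17 CPM in KDM1A shRNA, against 220 ± 8.93 CPM in control shRNA (−0.41, SE 0.04, edgeR adjusted p = 1.04e-06). Its partner DDIT3 fell to 11.4 CPM in KDM1A shRNA, against 24.5 CPM in control shRNA (−1.10, SE 0.08), and ATF3 (−1.53, SE 0.11) and the pseudokinase TRIB3 (−0.56, SE 0.05) fell as well. ATF5 rose (0.55, SE 0.08), as did the kinase gene EIF2AK2 (0.43, SE 0.06) and the pyruvate kinase gene listed as PKM2 (0.22, SE 0.03). MYC fell (−0.28, SE 0.04). EHMT2, a histone methyltransferase known to activate the pathway, was called higher (0.20, SE 0.06), but not without KDM1A shRNA library 2 (0.148). NFE2L2, which encodes NRF2 (−0.04, SE 0.05), and the histone demethylase gene KDM4C (−0.28, SE 0.13) were not called. The log2 fold change of KDM4C was −0.44 without KDM1A shRNA library 1 and −0.37 without control shRNA library 2.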

How the data were processed

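RNA was sequenced from 2 KDM1A shRNA and 2 control shRNA libraries as single reads, per the labels. The authors deposited raw counts per gene symbol, not normalized. Their tools were CASAVA 1.8.2, HTSeq and TopHat2 2.0.8b on hg19, per the submitters' processing notes. Annotation release and strand setting are not given in the sources used here. The 5 HTSeq summary lines entered neither library sizes nor tests. They hold reads outside genes (8.21% to 8.61% of a file's total), ambiguous reads (0.587% to 0.593%) and alignments that were not unique. The last were 29.8% and 29.7% in KDM1A shRNA libraries 1 and 2, and 32.2% and 31.9% in control shRNA libraries 1 and 2. The part of this difference in the values of genes with near-identical copies was not tested.

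The test was that of edgeR 4.0.16 (R 4.3.3) on the counts (TMM, filterByExpr with a minimum count of 10 and total of 15, quasi-likelihood F-test, group as only term), with Benjamini-Hochberg adjustment over 14012 genes and a threshold of 0.05. SE is the absolute log2 fold change over the square root of F. CPM are TMM-scaled, and fold changes put KDM1A shRNA over its control. A library's count of 0 allows up to 3 counts, 0.112 to 0.125 CPM. Intervals cover counting error only. An exact permutation test of 2 against 2 libraries was not used, since it cannot reach the threshold. The fit was tested on simulated data. Enzymes and lists were chosen with earlier results of these data known. Named genes are the enzymes, KDM1A, the 3 genes called higher and 3 called lower with the smallest p per list, fixed genes, chromosomal neighbours and the 3 genes most like PHGDH and CBS. Some of the fixed genes are not reported here. Positions are from GENCODE v44 lifted to GRCh37, matched to 21312 of 23228 symbols, partly through RefSeq synonyms. Alternatives used limma 3.58.1 and DESeq2 1.42.0.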

Additional observations from a re-analysis of the deposited data

How the results depend on the processing

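The 12 other settings were RLE, upper quartile or no normalization factors, 2 other filters, DESeq2, a replicate block, limma-voom, and each library left out. No alternative turned the direction of any of the 10 enzymes or of KDM1A, and scaling moved the median of all genes by at most 0.026. Without 1 library, 1 to 3 enzymes were called higher, 3 to 6 neighbours lower, and PHGDH ranged from −5.05 to −3.92. Without either KDM1A shRNA library, fewer of all genes were called in each direction as well. A fit without 1 library takes its spread only from the group left whole. Counts differed more between the control shRNA libraries (chi-square per degree of freedom 4.13) than between the KDM1A shRNA libraries (1.62). Calls gained or lost without 1 library cannot be told apart from this difference in spread. The counts of enzymes and neighbours called are therefore not read as particular to them, and whether they moved more was not tested. A filter of a mean of 5 CPM, which ALDH1L2 did not pass, left 1 neighbour called higher and 2 folate genes lower. DESeq2 called 5 folate genes higher. The filter tests fewer genes, and the cause in DESeq2 was not tested. Genes that were not called changed sign. EMBP1 was at −0.016 with upper quartile scaling and at −0.029 to 0.052 without 1 library, NDUFV3 at −0.090 to 0.071 and NFE2L2 at −0.081 to 0.0018. Libraries of the same number shared only that number (r = 0.015 over 14012 genes between their deviations from group means). With it as a replicate block, 3978 genes were called higher and 4164 lower, against 3828 and 4033, KDM4C passed (adjusted p = 0.0365), PHGDH was at −4.36, and no enzyme's call changed. The depth limits PHGDH, CBS, ALDH1L2, GLDC and SLC19A1, with 1 to 38 reads in KDM1A shRNA libraries.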
